A study of Rattus norvegicus with 12 samples.

Results

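Complement genes were followed in the ventral prostate of adult male rats under 3 procedures that remove or oppose testicular androgen. The set named 9 genes, found on the array by symbol: the C1q chain genes C1qa, C1qb and C1qc, the protease genes C1s, C2, Cfb, Cfd and Cfi, and C3. A gene counted as measured when a probe set carried its symbol alone, which held for 7 of the 9 among 14506 genes tested. C2 and Cfb, which neighbour each other in the GRCr8 gene table of RefSeq, were annotated to 1 shared probe set, so neither has a value here. Each measured member had 1 probe set: 10880734 for C1qa, 10880727 for C1qb, 10880731 for C1qc, 10865442 for C1s, 10931717 for C3, 10900735 for Cfd and 10819013 for Cfi.

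The 12 arrays came from Wistar rats aged 90 days in 4 groups of 3. Control rats kept their testes and received corn oil alone. Castrated rats had an orchiectomy, with ketamine at 150 mg/kg and xylazine at 10 mg/kg for anaesthesia. Estradiol rats were intact and received 17β-estradiol once at 25 mg/kg in corn oil. Rats of the combined group, labelled as castrated plus estradiol, had both procedures. Tissue was collected after 3 days in every group. The labels name anaesthesia only for the operated animals and do not say whether castrated rats received oil, so these cannot be told apart from castration. Which animal gave which array is not labelled, so p-values measure only the spread between these arrays, which may be technical.

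Complement is a cascade of plasma and tissue proteins that tags cells and debris for uptake. In the classical pathway, C1q binds a target, the attached protease C1r activates C1s, and C1s cleaves C4 and C2. In the alternative pathway, factor D (Cfd) cleaves factor B (Cfb) bound to C3b, and both routes form enzymes that split C3. Factor I (Cfi) then inactivates C3b with the help of cofactors. The liver makes most circulating complement, but C1q comes mainly from macrophages and dendritic cells, and adipocytes are a rich source of factor D. In the rat ventral prostate, androgen withdrawal is followed by death of secretory cells and uptake of their remains.

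Values are expression levels on a scale taken as log2, where a difference of 1 is a 2-fold change. A gene "rose" or "fell" when its adjusted p, from limma with Benjamini-Hochberg adjustment over all 14506 genes, was under 0.05. Estradiol arrays 1 and 2 stood apart from the other 10. The SD over all probe sets was 1.93 and 2.01 on them against 2.24 to 2.30 elsewhere, and the tenth of genes with the lowest levels averaged 3.41 and 3.34 against 2.69 to 2.84. Results are therefore given with and without these 2 arrays. Leaving them out keeps 1 estradiol array, whose spread is borrowed from the remaining groups. The tissue label was checked against prostate markers: Scgb2a1, a prostatein subunit gene, lay between 12.46 and 12.88 on all arrays, and Pbsn, the androgen-driven probasin gene, lay between 10.50 and 11.63 in controls and between 4.37 and 4.96 after castration. In the estradiol group Pbsn was 6.28, 4.82 and 9.71, and in the combined group 5.31, 7.45 and 4.88.

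Among the members, the 3 C1q chains had the largest differences from control in both castrated groups. After castration C1qa rose 2.66-fold and C1qb 3.42-fold, while C1qc, at 2.19-fold, did not pass. In the combined group C1qa rose 2.21-fold and C1qb 3.07-fold, and in intact rats given estradiol only C1qa passed, at 1.98-fold. C1s, C3, Cfd and Cfi did not pass in any comparison. After castration 2 of 7 members rose, where 3.17% of all genes rose. After estradiol 1 of 7 rose (2.51% of all genes), and after both treatments 2 of 7 (2.12% of all genes). No member fell. The median difference over the 7 members was 0.64, 0.48 and 0.58 in that order, beside 0.01, 0.07 and 0.04 over all genes. The 3 comparisons share the control arrays. A test over all 4 groups together, limma's moderated F test, called 1 member, C1qa (adjusted p = 0.0239), where it called 5.47% of all genes, and C1qb had an adjusted p of 0.0549.

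**Figure D1:**
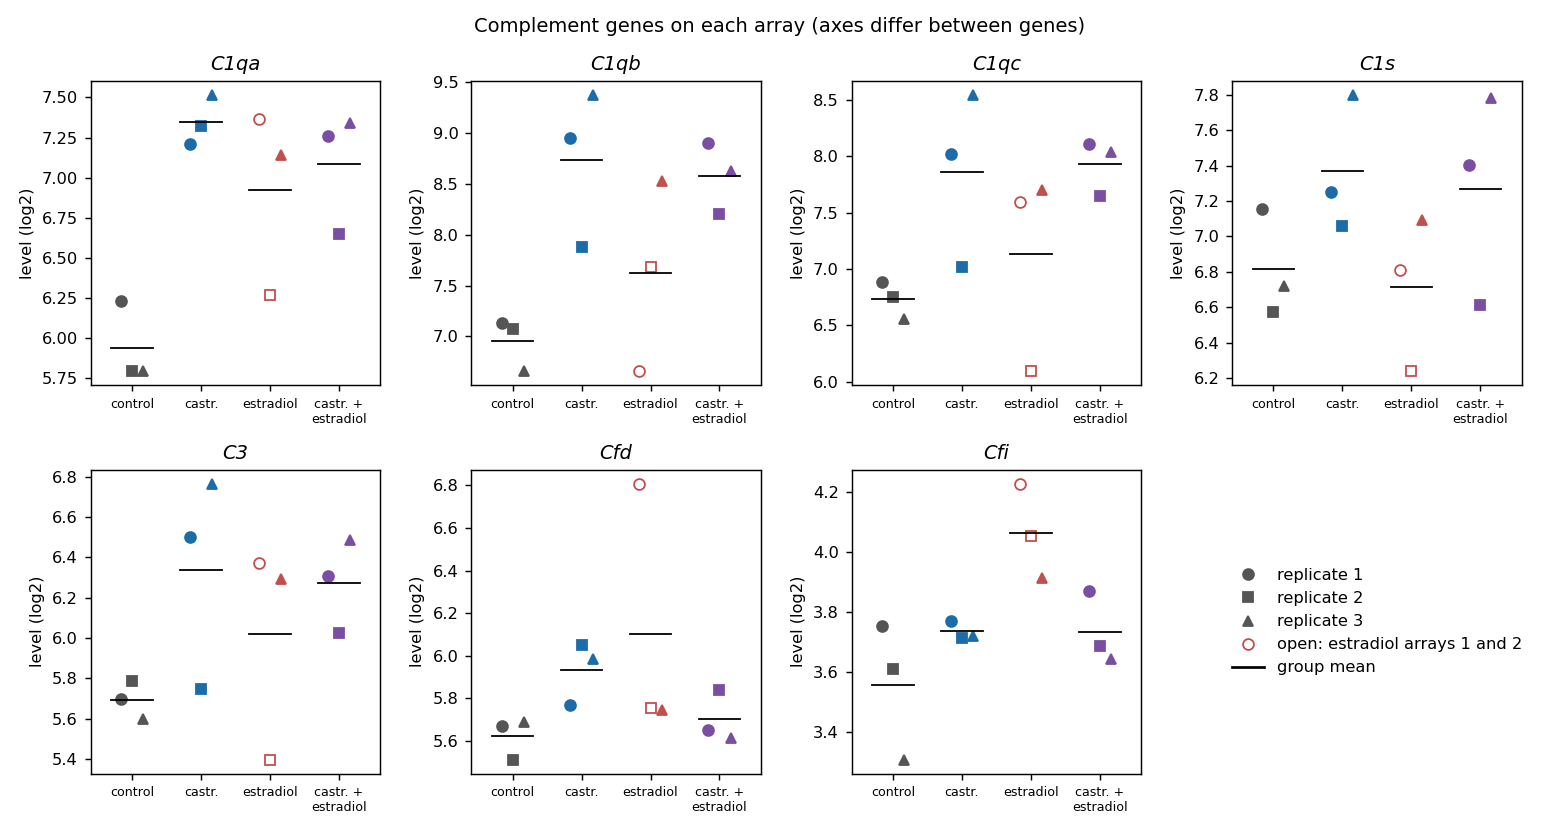
Level of each measured complement gene (vertical axis, log2, a separate range per gene) in the 4 groups (horizontal axis); each point is 1 array, symbols give the replicate number, open points are estradiol arrays 1 and 2, and lines are group means. For C1qa all 9 treated arrays lie above the 3 controls, and the estradiol group has the widest spread for C1qa, C1qb and C1qc.

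Upstream sequence is shown for C1qa and C1qb, the members that rose, as the neighbouring genes whose windows were listed. Both are the 120 bases before the RefSeq start, 5′ to 3′ on the minus strand of GRCr8, at chr5:154419934-154420053 and chr5:154407828-154407947. Capitals mark GGAAGT, or ACTTCC where it lies on the other strand, which is a core bound by ETS factors such as PU.1, and TGAAAC, part of elements bound by interferon regulatory factors. These 2 motifs were added after the letters had been read.
C1qa: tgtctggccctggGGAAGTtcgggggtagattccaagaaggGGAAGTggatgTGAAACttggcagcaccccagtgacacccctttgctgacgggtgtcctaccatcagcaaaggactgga
C1qb: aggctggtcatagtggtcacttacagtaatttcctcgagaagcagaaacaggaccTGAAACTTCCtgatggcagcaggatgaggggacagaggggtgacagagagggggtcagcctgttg

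In the 250 bases before its start, C1qa held GGAAGT at 107 and 79 bases upstream and TGAAAC at 68. C1qb held TGAAAC at 65 bases upstream and ACTTCC at 61, which overlap. Of 33469 promoter windows of this length, 19.2% held GGAAGT on either strand and 10.7% held TGAAAC. C1qb also held GAGGAA, another PU.1 core, at 247 bases upstream and, on the other strand, at 90 (23.3% of windows). None of TGANTCA (AP-1, 6.34%), GAAANNGAAA (interferon-stimulated, 3.41%), GGTCANNNTGACC (estrogen response, 0.0239%), CCAAT (34%) and TATAAA (12.9%) was found in either window on either strand. Windows were listed for 5 of the 7 measured members, and those of C3, Cfd and Cfi held none of these motifs. C1qc and C1s are not among them.

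C1qa encodes the A chain of C1q. Its level was 6.23, 5.80 and 5.79 on the control arrays, 7.21, 7.32 and 7.52 after castration, 7.37, 6.27 and 7.14 after estradiol, and 7.26, 6.65 and 7.34 after both. Every treated array was above every control array, with estradiol array 2 just above the highest control. C1qa was the 1 member of 7 with this pattern, which 4.63% of all genes had. The difference from control was 1.41 ± 0.27 (log2 ± SE, n = 3 per group) after castration (adjusted p = 0.00721, limma), 0.98 ± 0.27 after estradiol (adjusted p = 0.0405) and 1.14 ± 0.27 after both (adjusted p = 0.0268). The castration call was kept in all 22 alternative analyses, 12 of which left out 1 array each. The estradiol call was kept in 9 of 22 and the combined call in 16 of 22.

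The estradiol call of C1qa was lost without any 1 of the control arrays, any 1 of the castrated arrays, estradiol array 1, or combined arrays 1 or 3, with differences of 0.76 to 1.31 over the 12 single omissions. The combined call was lost without control arrays 2 or 3 and combined arrays 1 or 3, with differences of 1.02 to 1.36. Without estradiol arrays 1 and 2 together, C1qa differed by 1.20 on the estradiol array that remained (adjusted p = 0.0255) and passed in both castrated groups (adjusted p = 0.000509 and 0.00211).

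C1qb encodes the B chain. It measured 7.14, 7.08 and 6.66 in controls, 8.95, 7.88 and 9.37 after castration, and 8.90, 8.21 and 8.63 after the combined treatment, so that all 6 arrays of castrated animals were above all controls. After estradiol in intact rats it measured 6.66, 7.69 and 8.53, which ran from the level of the lowest control into the castrated range. The difference was 1.77 ± 0.43 after castration (adjusted p = 0.0266, limma) and 1.62 ± 0.43 after both treatments (adjusted p = 0.0498), the 55th largest rise of 14506 genes in each case. After estradiol it was 0.67 ± 0.43 (95% confidence interval -0.25 to 1.58, adjusted p = 0.291).

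The castration call of C1qb was lost without any 1 control array or castrated arrays 1 or 3 (1.45 to 2.20 over single omissions). Its combined call was lost without any 1 control array, any 1 combined array, castrated array 1 or estradiol array 2 (1.46 to 1.80). Without estradiol arrays 1 and 2 both calls were kept (adjusted p = 0.00328 and 0.00605), and the difference after estradiol was 1.57 (adjusted p = 0.074).

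C1qc encodes the C chain. Its control levels were 6.89, 6.75 and 6.56, against 8.02, 7.02 and 8.55 after castration, 7.60, 6.09 and 7.71 after estradiol, and 8.11, 7.65 and 8.04 after both. Both castrated groups lay above control without overlap, while estradiol array 2 was lower than any control. The differences of 1.13 ± 0.41, 0.40 ± 0.41 and 1.20 ± 0.41 did not pass (adjusted p = 0.152, 0.501 and 0.139, limma). The estradiol difference was 0.97 without estradiol arrays 1 and 2 (adjusted p = 0.255) and 0.11 to 0.92 over single omissions. Without estradiol arrays 1 and 2, the castrated and combined groups passed (adjusted p = 0.0251 and 0.0214), and leaving out estradiol array 2 alone also gave both calls. With the 2 arrays left out, 3 of 7 members rose after castration, where 10% of all genes did, and 3 of 7 in the combined group, where 7.61% did.

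**Figure D2:**
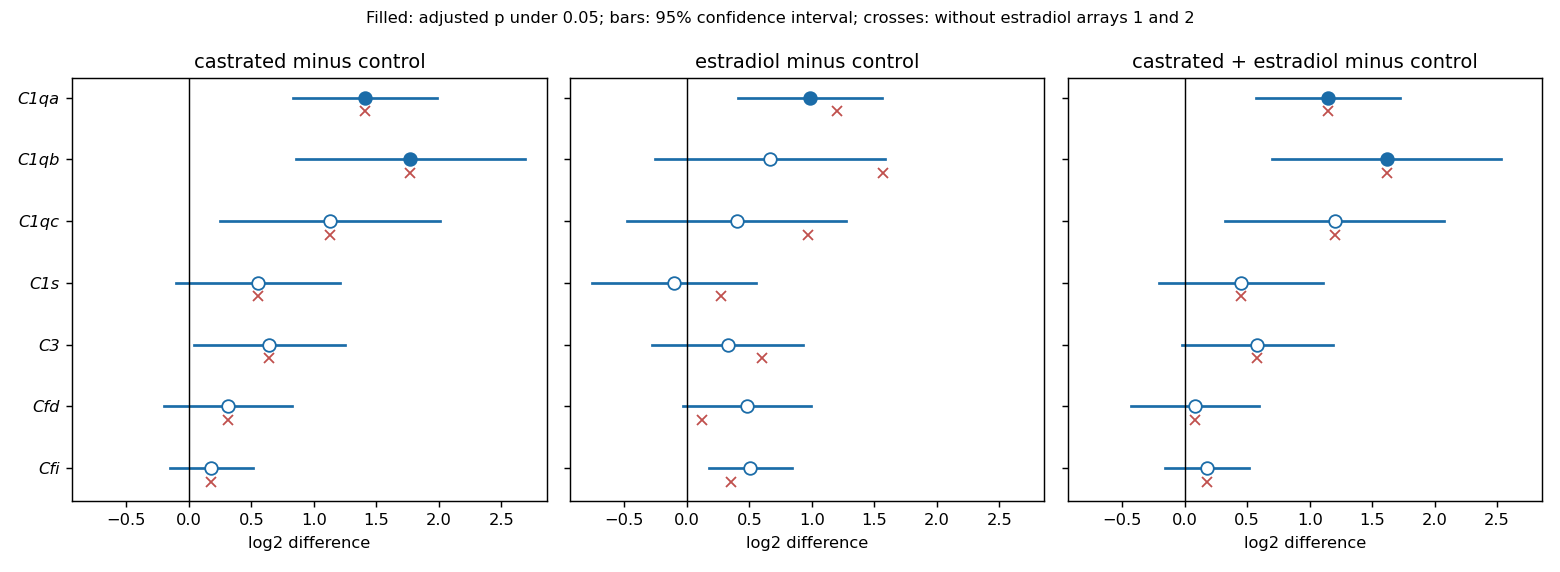
Log2 difference from control (horizontal axis) of each member (vertical axis) in the castrated, estradiol and combined groups; circles are the fit on 12 arrays (filled where adjusted p was under 0.05), bars its 95% confidence interval, and crosses the fit without estradiol arrays 1 and 2. The 5 filled circles are C1qa in all 3 panels and C1qb in the castrated and combined panels.

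C1qb, C1qc and C1qa are neighbours in the GRCr8 gene table, in that order and with no other listed gene among them, and their products assemble in equal numbers into 1 molecule. Their levels moved alike on most arrays. On the 10 arrays other than estradiol 1 and 2, Pearson's r was 0.91 between C1qa and C1qb, 0.84 between C1qa and C1qc and 0.98 between C1qb and C1qc. Over all 12 arrays the same pairs had r of 0.66, 0.80 and 0.76. These are descriptions of arrays that share groups, with no test.

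The chains parted on a few arrays. On estradiol array 1, relative to its own control mean, C1qa stood at 1.43 and C1qc at 0.87 but C1qb at -0.30, a range of 1.73. On estradiol array 2 the order was different, with C1qb at 0.73, C1qa at 0.33 and C1qc at -0.64. On castrated array 2, C1qa stood at 1.38, C1qb at 0.92 and C1qc at 0.29. The range between the chains was 0.36 to 0.84 on the other 6 treated arrays and 0.14 to 0.26 on the controls.

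Spi1, the gene of PU.1, was in a list of inducers of complement genes. It measured 5.63, 5.46 and 5.84 in controls, 6.88, 6.75 and 7.24 after castration, 6.54, 6.31 and 6.90 after estradiol, and 6.71, 6.53 and 6.57 after both. It rose by 1.31, 0.94 and 0.96 (adjusted p = 0.000931, 0.00894 and 0.0088, limma), with every treated array above every control. The estradiol call was lost without control array 2 (adjusted p = 0.0557) and with only the estradiol and control arrays in the fit (0.0866). The combined call was lost without control array 2 or combined array 1 (0.0643 and 0.0565). The effect of estradiol on Spi1 in castrated rats minus that in intact rats was -1.29. It passed (adjusted p = 0.0335, limma), where 1.1% of all genes did, and was kept in 11 of 21 alternatives. That list, which also held cytokines, interferon and NF-kB genes, had 14 measured genes. Spi1 was the only 1 of them to pass in each comparison with control. Binding of PU.1 was not measured, and the part of Spi1 in the C1q values was not tested.

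Macrophage markers moved with C1q. Of 11 measured, 8 rose after castration (3.17% of all genes), 2 after estradiol (2.51%) and 5 after both (2.12%). Median differences of the markers were 1.49, 0.62 and 1.24. Their mean level per array was 6.48 to 6.98 in controls, 7.86 to 8.43 in castrated, 7.06 to 8.01 in estradiol and 7.54 to 8.01 in combined animals. Csf1r, the receptor for a macrophage growth factor, lay at 7.09 ± 0.28 (SD, n = 3) in controls and 8.76 ± 0.35 after castration, a rise of 1.67, and Cd68 at 6.47 ± 0.32 and 7.96 ± 0.69. Csf1r differed by 0.54 after estradiol (adjusted p = 0.269, limma) and 1.24 after both (adjusted p = 0.0502), and without estradiol arrays 1 and 2 by 1.40 after estradiol (adjusted p = 0.0302) and 1.24 after both (adjusted p = 0.00388). Cd68 did not pass after castration (adjusted p = 0.0682), estradiol (0.73, adjusted p = 0.26) or both (1.29, adjusted p = 0.141). Aif1 and Tyrobp, genes of a calcium-binding protein and a signalling adaptor of myeloid cells, passed in all 3 comparisons. The mean of the 3 C1q chains followed the mean of the markers with r = 0.96 over 12 arrays and 0.98 without estradiol arrays 1 and 2. With the same marker mean, r over 12 arrays was 0.74 for C1s, 0.75 for C3, 0.015 for Cfd and 0.18 for Cfi. Without estradiol arrays 1 and 2 it was 0.74, 0.86, 0.52 and 0.69. These values describe arrays that share groups, with no test. In bulk tissue, more cells of a type and more RNA per cell cannot be told apart, and the part of macrophage number in the C1q result was not tested.

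**Figure D3:**
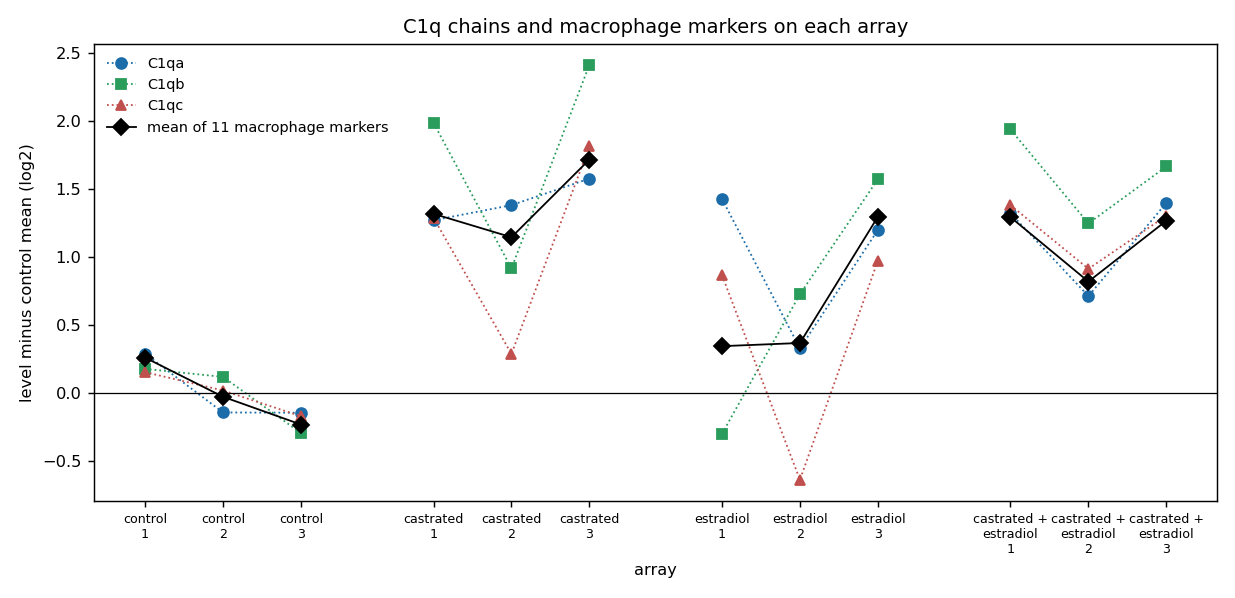
Level relative to the control mean (vertical axis, log2) on each of the 12 arrays (horizontal axis, by group and replicate) for C1qa (circles), C1qb (squares), C1qc (triangles) and the mean (diamonds) of 11 macrophage markers; lines join arrays of a group for the eye and carry no order. The marker mean stands at 1.15 to 1.72 in castrated and 0.82 to 1.29 in combined animals, and C1qb lies below it on castrated array 2 and estradiol array 1 and above it on the other 7 treated arrays.

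Other cell types were read from lists in the same way. Of 5 luminal epithelial markers 4 rose after castration (3.17% of all genes), 2 after estradiol (2.51%) and 4 after both (2.12%). The keratin genes Krt8 (1.28, 0.81 and 1.06) and Krt18 (0.97, 0.70 and 0.87) rose in each. Of 5 T cell markers 1, 2 and 1 rose beside the same shares, and none of 5 neutrophil markers did. The T cell mean was 4.99 and 4.67 on estradiol arrays 1 and 2, 4.66 on estradiol array 3 and 4.22 to 4.45 in controls. The part of the raised low levels on estradiol arrays 1 and 2 in these values was not tested. Of 4 smooth muscle and 3 endothelial markers 1 each fell after estradiol, where 5.48% of all genes fell.

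The genes most like the C1q mean over the 12 arrays were Pld4, a phagocyte nuclease (r = 0.98), Itgal, the leukocyte integrin alpha L chain (r = 0.97), and Tbc1d2b (r = 0.97). Pld4 rose after castration (1.54, adjusted p = 0.0183, limma) and after both treatments (1.30, adjusted p = 0.0499) and differed by 0.63 after estradiol (adjusted p = 0.222). Likeness was Pearson's r among all tested genes, with members and placeholder symbols left out.

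C1s encodes the protease that C1q activates through C1r. Its level was 7.16, 6.57 and 6.72 in controls, 7.25, 7.06 and 7.80 in castrated, 6.81, 6.24 and 7.09 in estradiol and 7.40, 6.61 and 7.78 in combined animals. The groups overlapped throughout. Differences from control were 0.55 (95% confidence interval -0.10 to 1.21), -0.10 (-0.76 to 0.56) and 0.45 (-0.21 to 1.11), with adjusted p of 0.439, 0.832 and 0.637. The sign after estradiol turned without estradiol arrays 1 and 2 (0.28). C1r, its partner, differed by 0.16, -0.46 and 0.22 and did not pass either (adjusted p = 0.942, 0.325 and 0.923). The genes most like C1s were Igsf10, Oasl2 and Poglut3 (r = 0.94 each). Fibroblasts also make C1r and C1s. The 6 fibroblast markers had a mean level of 7.95 to 8.33 in controls, 7.79 to 8.37 in castrated, 7.41 to 7.85 in estradiol and 7.73 to 8.18 in combined animals, and none passed. Dcn, a matrix proteoglycan gene, differed by 0.35, -0.76 and 0.02, and Col1a1, a collagen gene, by -0.47, -0.31 and -0.26. Their part in the C1s values was not tested.

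C3 encodes the protein on which all pathways meet. It measured 5.70, 5.79 and 5.60 in controls. It was 6.50, 5.75 and 6.77 after castration, 6.37, 5.40 and 6.29 after estradiol and 6.31, 6.02 and 6.49 after both. Castrated array 2 and estradiol array 2 lay within or below the control range, and the combined arrays were all above it. Differences of 0.64 ± 0.28, 0.33 ± 0.28 and 0.58 ± 0.28 did not pass (adjusted p = 0.263, 0.425 and 0.373, limma), and without estradiol arrays 1 and 2 the first and last had adjusted p of 0.0706 and 0.113. C3 was close to C1qc over the arrays (r = 0.96, and 0.97 on 10 arrays). Outside the members it was most like Clec10a, a macrophage lectin (r = 0.97), Coro1a, an actin regulator of leukocytes (r = 0.94), and Tap1, a peptide transporter of antigen presentation (r = 0.93). Markers of hepatocytes, the main source of circulating C3, had a mean level of 4.51 to 4.57 in controls, 4.61 to 4.70 in castrated, 4.84 to 5.13 in estradiol and 4.69 to 4.80 in combined animals. Of these 5 markers Fgb, a fibrinogen chain gene, rose in each comparison (0.83, 0.98 and 0.82), where 3.17%, 2.51% and 2.12% of genes rose. Alb lay between 3.39 and 4.46 and Apoa1 between 5.05 and 5.51 over the 12 arrays. The marker mean was 5.13 and 4.96 on estradiol arrays 1 and 2 and 4.84 on estradiol array 3. The part of the raised low levels on estradiol arrays 1 and 2 in this mean was not tested. The part of hepatocytes in the C3 values was not tested either.

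Cfd, or adipsin, measured 5.67, 5.51 and 5.69 in controls, 5.77, 6.05 and 5.99 after castration, 6.81, 5.76 and 5.74 after estradiol and 5.65, 5.84 and 5.61 after both. All castrated and all estradiol arrays were above control, by small margins, and estradiol array 1 was the highest of the 12. Differences were 0.31 ± 0.24, 0.48 ± 0.24 and 0.08 ± 0.24 (adjusted p = 0.661, 0.19 and 0.982, limma). Without estradiol arrays 1 and 2 the difference after estradiol was 0.12. The adipocyte marker Adipoq was 4.13 to 4.75 in controls, 6.69 on castrated array 2 and no higher than 5.23 elsewhere, and Plin1 ran from 5.07 to 5.78. Of 6 adipocyte markers Lep, the leptin gene, rose after estradiol (0.84, adjusted p = 0.0442, limma), where 2.51% of all genes rose. None passed in the other comparisons with control. Lep was 6.19, 6.24 and 5.21 on the estradiol arrays against 4.96 to 5.09 in controls. The part of the raised low levels on estradiol arrays 1 and 2 in the Lep value was not tested. The mean of the 6 adipocyte markers was 4.85 to 5.04 in controls, 4.83 to 5.76 in castrated, 5.11 to 5.38 in estradiol and 4.88 to 5.09 in combined animals. Cfd had its highest castrated level on castrated array 2 and its highest level overall on estradiol array 1, where Adipoq was 5.07. The part of fat in the sample was not tested. The genes most like Cfd, Npas4, Gipc2 and Spmip3, had r of 0.96, 0.95 and 0.95, and 0.81, 0.75 and 0.81 without estradiol arrays 1 and 2.

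Cfi, the inactivator of C3b, had low levels on the array scale: 3.75, 3.61 and 3.31 in controls, 3.77, 3.71 and 3.72 after castration, 4.23, 4.05 and 3.91 after estradiol and 3.87, 3.69 and 3.64 after both. The 3 estradiol arrays were the highest of the 12. The difference after estradiol was 0.51 ± 0.15 (adjusted p = 0.0605, limma), and 0.36 without estradiol arrays 1 and 2 (adjusted p = 0.325). On those 2 arrays genes with low levels as a whole stood higher than elsewhere, and the part of this shift in the Cfi value was not tested. After castration and after both treatments Cfi differed by 0.18 each (adjusted p = 0.725 and 0.781). The genes most like it were Pald1, Cacnb4 and Ptpn7 (r = 0.93, 0.92 and 0.91).

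Counted by overlap alone, 4 of 7 members had all castrated arrays above all controls (18.8% of all genes did), 3 of 7 all estradiol arrays (12.3%) and 4 of 7 all combined arrays (21.1%). The members concerned were C1qa in all 3 comparisons, C1qb and C1qc in the castrated and combined groups, Cfd in the castrated and estradiol groups, Cfi in the estradiol group and C3 in the combined group.

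Treated groups were then set against each other. By limma no member passed in any such comparison, and the same held for all genes (0% called in each of the 3). With an unadjusted p under 0.05 there were 0 members between combined and castrated animals (1.05% of all genes), 1 between combined and estradiol (18.9%) and 1 between estradiol and castrated (27.3%). That member was C1qb in both: it was 0.95 higher in combined than in estradiol animals (95% confidence interval 0.03 to 1.87, adjusted p = 0.257) and 1.11 lower in estradiol than in castrated animals (difference -1.11, interval -2.02 to -0.19, adjusted p = 0.152). These differences were 0.045 and -0.20 without estradiol arrays 1 and 2, and single omissions gave 0.47 to 1.40 and -1.56 to -0.62. Between combined and castrated animals the C1q chains differed by -0.27, -0.16 and 0.07 for C1qa, C1qb and C1qc, with intervals of -0.84 to 0.31, -1.07 to 0.76 and -0.81 to 0.95.

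The interaction asked whether estradiol acted differently in rats with and without testes. For C1qa the effect of estradiol was 0.98 in intact and -0.27 in castrated rats, and the second minus the first was -1.25 ± 0.38 (unadjusted p = 0.00548, adjusted p = 0.15, limma). No member passed, where 1.1% of all genes did, and 2 had an unadjusted p under 0.05 (14.2% of all genes), C1qa and Cfi (-0.51, adjusted p = 0.321). Without estradiol arrays 1 and 2, which left 1 estradiol array, the interaction of C1qa was -1.46. Without estradiol array 2 alone it was -1.58 and passed (adjusted p = 0.0305, limma), where 1.17% of all genes did. The estimates of the other members ran from -0.82 for C1qb to -0.0021 for C1s. That of C1qb was -1.73 without estradiol arrays 1 and 2 (adjusted p = 0.136, limma) and -1.30 to -0.37 over single omissions.

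The rest of the complement system was read from a list of 48 further genes, of which 42 were measured. After castration 3 rose and 2 fell (3.17% of all genes rose and 2.36% fell), after estradiol 2 rose and 2 fell (2.51% and 5.48%), and after both 2 rose and 2 fell (2.12% and 2.21%). The median difference over the 42 was 0.01, 0.20 and 0.08. Clu and C3ar1 rose and Colec12 and Calr fell in all 3 comparisons, and Itgb2 rose after castration. With estradiol arrays 1 and 2 left out, 9 of the 42 passed after castration (16.6% of all genes) and 12 in the combined group (14.5%). Without estradiol array 3, 17 passed after estradiol (36.7% of all genes). In the interaction, Colec12 (1.54), Calr (1.32) and Clu (-1.66) passed, with adjusted p of 0.0398, 0.0312 and 0.00615 (limma). The Clu call was kept in all 21 alternatives, that of Calr in 11 and that of Colec12 in 8. Colec12 was lost in 9 of 12 single omissions (all but those of estradiol arrays 1, 2 and 3), and Calr in 8 of 12 (all but those arrays and combined array 3).

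C3ar1, the receptor for the C3a fragment, had the largest rise of the list after castration. It went from 5.57 ± 0.24 (SD, n = 3) in controls to 7.66 ± 0.34 after castration, 6.75 ± 0.80 after estradiol and 7.47 ± 0.20 after both, differences of 2.08, 1.18 and 1.90 (adjusted p = 0.00158, 0.0392 and 0.00334, limma). Its estradiol call was lost without any 1 control array, castrated array 1 or any 1 combined array (differences of 0.72 to 1.47 over single omissions), and was 2.09 without estradiol arrays 1 and 2. Itgb2, the beta chain of complement receptors 3 and 4, differed by 0.92, 0.66 and 0.73 (adjusted p = 0.038, 0.0938 and 0.122), and its call was lost without any 1 control array, castrated arrays 1 or 3 or combined arrays 1 or 3 (0.73 to 1.06). Calr, calreticulin, an endoplasmic reticulum chaperone that also binds C1q at the cell surface, fell by 1.11, 1.07 and 0.86 (adjusted p = 0.00327, 0.00441 and 0.0185), the last call being lost without any 1 control array or combined arrays 1 or 3. C5ar1, the C5a receptor, differed by 0.23, -0.12 and 0.14 and did not pass (adjusted p = 0.79, 0.731 and 0.946).

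Among soluble regulators, clusterin (Clu), which blocks the terminal complex and marks the regressing rat prostate, went from 10.76 ± 0.23 to 12.80 ± 0.16, 12.41 ± 0.28 and 12.79 ± 0.10 (adjusted p = 1.71e-05, 0.000151 and 1.89e-05, limma). Serping1, the inhibitor of C1r and C1s, differed by 0.41, -0.54 and 0.69 (adjusted p = 0.766, 0.337 and 0.482), and turned to 0.15 after estradiol without estradiol arrays 1 and 2. Colec12, a scavenger collectin listed with the classical and lectin pathway and not with the regulators, fell by 1.41, 1.41 and 1.28 (adjusted p = 0.0026, 0.00294 and 0.00532, limma). Its level went from 8.52 ± 0.31 in controls to 7.12 ± 0.28, 7.11 ± 0.39 and 7.24 ± 0.23. None of the 7 measured genes of the alternative and terminal pathways, namely Cfp (properdin), C6, C7, C8a, C8b, C8g and C9, passed against control, by limma, with 1 at an unadjusted p under 0.05 after castration (16.1% of all genes), 2 after estradiol (30.2%) and 0 after both (14.7%).

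**Figure D4:**
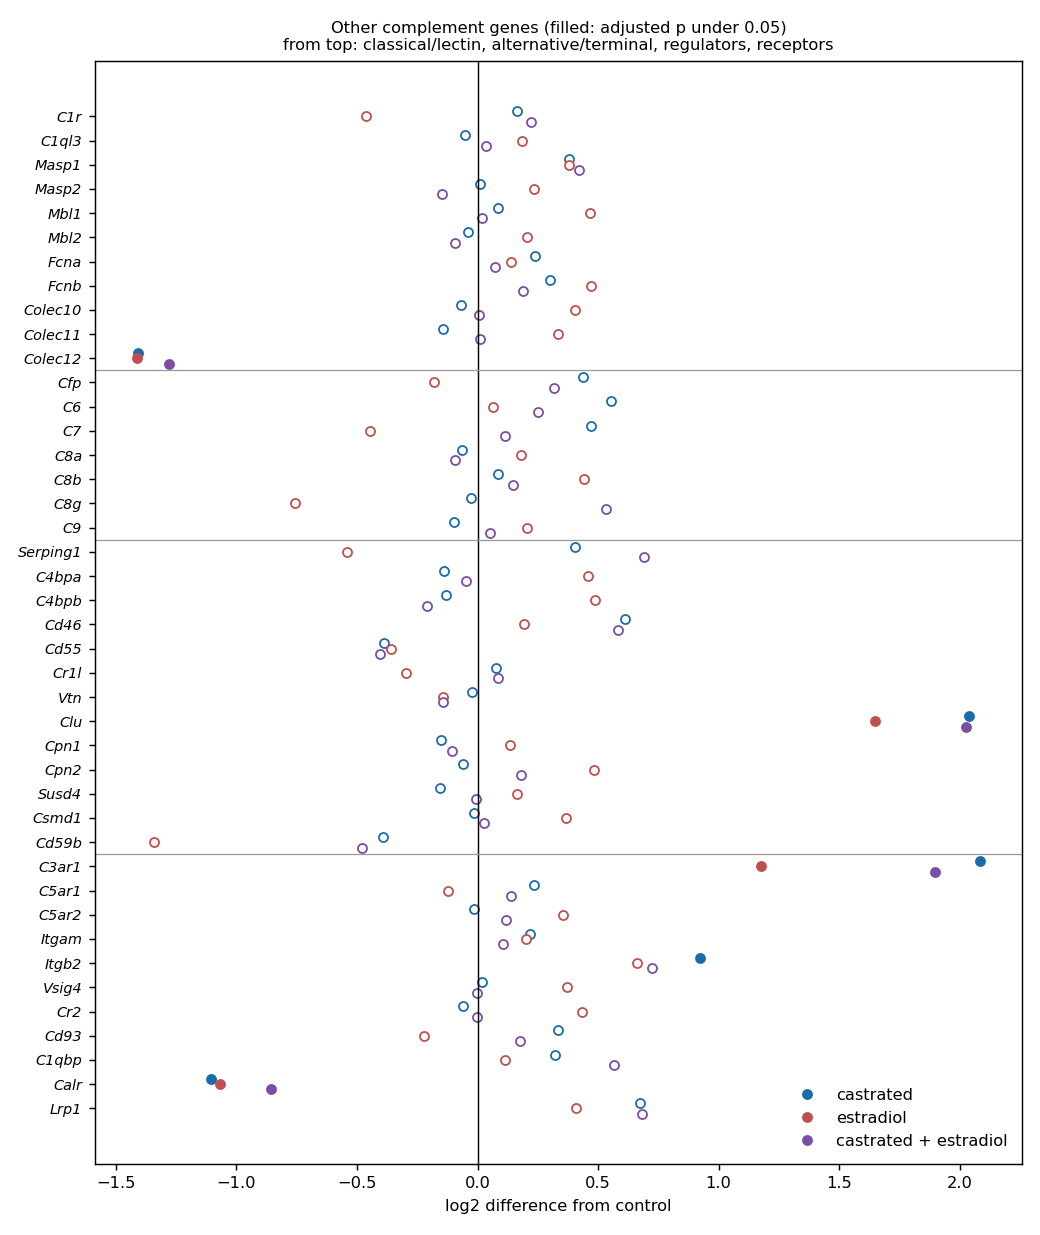
Log2 difference from control (horizontal axis) of the 42 measured complement genes outside the members (vertical axis, grouped by role with grey rules), in castrated, estradiol and combined animals; filled points passed with adjusted p under 0.05. Filled points are Clu and C3ar1 on the right and Colec12 and Calr on the left in all 3 colours, and Itgb2 in castrated animals.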

How the data were processed

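Per the labels, 500 ng of RNA from 30 mg of ventral prostate was converted to biotin-labelled cDNA for Affymetrix arrays. The authors used Affymetrix Expression Console, per the submitters' processing notes. Normalization, program version and genome build were not stated in the labels used here. The deposited values of 29214 probe sets (0.80 to 13.39) were taken as log2 levels from their range. Probe sets with 1 gene symbol (15310) were used, and those with several (323) or none (13581) left out. Per gene the probe set with the highest mean over 12 arrays was kept, giving 14506 genes.

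Differences between the 4 group means were tested with limma (version 3.58.1, R version 4.3.3), 2-sided, with all 12 arrays in the model and Benjamini-Hochberg adjustment over all genes at 0.05. Residual degrees of freedom were 8, plus 5.29 from the prior. The median standard error of a difference was 0.19, and 3 arrays per group limit the precision. The procedure was tested on simulated data for castrated against control arrays, with 50 genes changed at each size. It called 14% of genes changed 1.5-fold, 62% of those changed 2-fold and 100% of those changed 4-fold or 8-fold. Differences of 2-fold or less that did not pass may thus have been missed. The labels give each group replicates 1 to 3 without saying what they share. The deviations from the group means of all 3 same-number pairs correlated at over 0.1 between estradiol and castrated arrays (r = 0.14, 0.28 and 0.20). In no other pair of groups were all 3 over 0.1. The numbers may therefore pair those arrays. Pairs of different number also reached 0.28, but between control array 1 and combined array 3. Between estradiol and castrated arrays, pairs of different number ran from -0.22 to -0.0076. Deviations from a group mean cancel within the group, so these signs depend on each other and do not settle it. The main fit did not pair arrays, and a fit with a replicate block is given below. Alternatives numbered 22 for a comparison of 2 groups. Likeness was Pearson's r over the 12 arrays. Figures used matplotlib 3.10.9.

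Members, gene lists and tests were chosen with earlier results of these data known. Named genes are the members, the other complement genes that passed against control, Clu, Serping1, C3ar1 and C5ar1 whatever their result, the defining markers, and the 3 genes most like each member or the C1q mean. Spi1, C1r, Fgb, Lep, Aif1, Tyrobp and the alternative and terminal pathway genes were named after their values were seen. Promoter windows and gene order are from RefSeq (GRCr8), and probe positions were not used.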

Additional observations from a re-analysis of the deposited data

How the results depend on the processing

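The call of C1qa after castration was kept in all 22 alternatives; every other call of a member was lost in some. With array quality weights 6 members passed after castration (26.1% of all genes), 0 after estradiol (15.9%), 6 in the combined group (28.5%), 1 between combined and estradiol animals (3.37%), 3 between estradiol and castrated animals (11.2%) and 5 in the F test (36.6%), and 19 and 14 of the other complement genes passed after castration and in the combined group. With all probe sets tested, the members passing after castration, estradiol and both were 1, 0 and 0 (2.88%, 4.17% and 2.27% of all probe sets). With medians centred, 0 passed after estradiol (9.02% of all genes) and 1 after both (3.78%). With quantile normalization, 1 passed after both (4.45%) and 0 in the F test (4.67%). With only the compared arrays, 0 members passed after estradiol (1.36% of all genes) and 4 after both (19.8%), and 2 and 12 of the other complement genes. Without dim genes, which drops Cfi, 2 passed the F test (7.9% of the genes kept). Without estradiol arrays 1 and 2, 1 passed the interaction and 2 the F test, and 9 and 12 other complement genes passed after castration and after both. The cause of these shifts was not tested.

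Leaving out 1 array at a time gave 1 to 3 members after castration (2.49% to 12.3% of all genes). After estradiol it gave 0 to 2 (2.69% to 36.7%), and after both 0 to 2 (1.83% to 10.2%). Between combined and estradiol animals, between estradiol and castrated animals and in the interaction it gave 0 to 1. In the F test it gave 0 to 2 (1.59% to 34.1%). Other complement genes passing after estradiol ranged from 3 to 17. Without estradiol array 3, where the members numbered 2 after estradiol, 1 in each comparison of estradiol with another treatment and 2 in the F test, 36.7%, 28.6% (combined), 37.3% (castrated) and 34.1% of all genes were called. The 3 after castration came without estradiol array 2, where 6.67% were, as did the 1 in the interaction (1.17%).

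Same-numbered arrays did not deviate together over the groups as a whole: correlations ran from -0.16 to 0.28 over 18 pairs of one number and from -0.25 to 0.28 over 36 pairs of different numbers. The exception was estradiol against castrated animals, where all 3 same-number pairs were over 0.1 (0.14, 0.28 and 0.20). There the replicate block called 0 members (0% of all genes), as the fit without it did. Elsewhere, with the replicate block, 3 members passed after castration (5.69% of all genes), 2 after estradiol (8.65%) and 3 after both (4.49%), and 2 the F test (5.6%).

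Signs turned only where no call was made. Against control these were C1qc (-0.16) and C3 (-0.039) after estradiol with quality weights, C1s after estradiol without estradiol arrays 1 and 2 (0.28; -0.29 to 0.14 over single omissions) and Cfd in the combined group with quantile normalization (-0.018). After estradiol without estradiol arrays 1 and 2, Serping1 was 0.15 and C5ar1 0.22, and C5ar1 after castration ran from -0.014 to 0.48 over single omissions. Combined minus castrated, quality weights gave C1qc -0.25 and Cfi 0.061, and single omissions gave C1qb -0.58 to 0.17, C1qc -0.35 to 0.41, C1s -0.36 to 0.22, C3 -0.36 to 0.15 and Cfi -0.069 to 0.043. Combined minus estradiol, C1qa was -0.060 with quantile normalization, -0.055 without estradiol arrays 1 and 2 and -0.17 to 0.38 over single omissions, and C3 was -0.021 without those arrays and -0.059 to 0.43 over single omissions. Estradiol minus castrated, Cfd was -0.072 with quality weights, -0.19 without estradiol arrays 1 and 2 and -0.19 to 0.35 over single omissions. In the interaction C1s was 0.062 with medians centred, 0.046 with quality weights and -0.26 to 0.32 over single omissions, and C1qc -0.85 to 0.012.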
